A study of Mus musculus with 1298 samples.

Results

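Early mesenchymal progenitors of the Pax7 lineage at E12.5 were described here from a set of cells taken among the 1331 cells of that day, which made up 9.86% of the 3916 single cells of all days. They were found by scoring every cell on 9 panels of 4 genes, where a score is the mean over the panel of log2(1 + 10000 × count / total count of the cell). A cell of E12.5 was taken when the panel of Prrx1, Alx1, Hmga2 and Zfhx3 (panel E) gave its highest score and that score was at least 0.7. By platform, members were 28.7% of the 1017 cells measured with 10× Chromium, which counts transcript molecules by unique molecular identifiers (UMIs), and 94 cells or 29.9% of those measured with Smart-seq2 (ss2), which reads full-length transcripts. On later days the same rule took 3.62% of the 10× cells of E14.5 and 3.79% of those of E16.5, and on ss2 it took 3 cells at E14.5 and none at E16.5, which allows a share of up to 0.877%.

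All cells carried Pax7CreER and R26R-stop-EYFP, so that tamoxifen (75 µg per g, given at E9.5) marked Pax7-expressing cells and their progeny with YFP for good, including neural as well as somitic descendants. Head, limbs and internal organs were removed, embryos of a day were pooled, and YFP-positive cells were sorted on 3 days (E16.5, E14.5 and, for the members, E12.5). There was 1 10× library per day and 7 ss2 plates (b1 to b7) at E12.5, of which b3 to b7 share sequence batch 5 and b1 and b2 form batches of their own. No animal is named in the labels, the classes compared were chosen by expression, and so the comparisons carry no test: differences are given as values by platform and by plate, and intervals (95%, exact) cover counting error only.

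Mesenchymal progenitors of the dorsal somite are loosely arranged, migratory cells that arise when the epithelial dermomyotome, the dorsal layer of the somite, breaks up. They lay down a young collagen and proteoglycan matrix, receive Pdgf, Wnt and Bmp signals, and give rise to dermis, brown fat and other connective tissues, while their neighbours that turn on Myf5 and Myod1 become muscle. Prrx1 is a homeodomain factor of embryonic mesenchyme, Alx1 a related factor best known from craniofacial mesenchyme, Hmga2 a chromatin protein of fetal growth that is repressed by the let-7 microRNAs, and Zfhx3 a large zinc-finger homeodomain protein that is also present in neurons. On GRCm38 they lie at chr1:163245119-163313710 (minus strand), chr10:102998707-103030215 (minus), chr10:120361275-120476469 (minus) and chr8:107942644-108961630 (plus).

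The panel genes chose the members and are given only as a description. On 10×, 83.2% of members had a UMI of Zfhx3, 62.7% of Hmga2 and 42.8% of Prrx1, and 1 member had a UMI of Alx1. On ss2, 92 of 94 members had a count of Prrx1, 89 of Zfhx3, 88 of Hmga2 and 18 of Alx1. Members on 10× therefore rested on few molecules: 100 had a single panel gene (66 with Zfhx3, 21 with Hmga2, 13 with Prrx1), 68 had 3, none had 4 and the remaining 42.5% had 2, and 54 (18.5%) rested on exactly 1 UMI. On ss2, 1 member had a single panel gene, 8 had 2, 70 had 3 and 15 had 4.

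Scores of members ran from 0.707 to 3.55 on 10× (median 1.49) and from 0.768 to 2.98 on ss2 (median 1.66). Just inside the limit, 24 members on 10× and 2 on ss2 scored under 0.8. Just outside it, 57 cells on 10× and 1 on ss2 had panel E as their highest panel at scores of up to 0.699. A further 21.8% of the E12.5 cells on 10× and 52 cells on ss2 passed the limit on panel E but scored higher elsewhere, most of them (17.8% of the cells on 10× and 22 cells on ss2) on the neuronal panel, that is on Tubb3, Elavl3, Dcx and Rtn1 (N cells). The lead was under 0.3 for 71 members on 10× and 13 on ss2.

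The name was checked on genes outside the panels. Col1a1, the main fibrillar collagen of connective tissue (chr11:94936224-94953042, plus strand), had a UMI in 57.2% of members, against 39 N cells (9.47%) and 4 of 37 muscle progenitors (10.8%), where muscle progenitors (M cells) are E12.5 cells that scored highest on Msc, Cdh15, Myf5 and Capn6. Thinned to 1000 UMIs per cell, the shares for Col1a1 were 38.8% of members, 2.98% of N cells and 0 of 34 M cells. Col3a1, the collagen of young loose tissue, was found in 71.6% of members, 63 N cells (15.3%) and 11 M cells (29.7%). The N cells, which should lack these genes and were deeper (median 3075 UMIs against 1703 in members and 2131 in M cells), are given as the background, and the part of free RNA or of mixed cells in it was not tested.

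Pdgfra, the Pdgf receptor used to sort mesenchymal progenitors (chr5:75152292-75198215, plus strand), had a UMI in only 25 members on 10× (8.56%, interval 5.62 to 12.4%), against 11 N cells (2.67%) and 0 of 37 M cells. On ss2, 79 of 94 members had a count of Pdgfra, with a lowest plate of 197.6 CPM (counts per 1000000 counts of the class), a median plate of 369.3 and a highest plate of 527.98, compared with 45.1 CPM over the M cells and 6.08 over the N cells. The 7 plates did not overlap with either. Of the mesenchymal factor Twist1 a UMI was found in 78 members on 10× (26.7%) and in 26 N cells (6.31%). So mesenchymal genes outside the panels were present in the members, but Alx1, 1 of the 4 genes of the panel, had a count in 1 member (0.34%) on 10× and in 8 of 84 on plates b2 to b7.

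**Figure D1:**
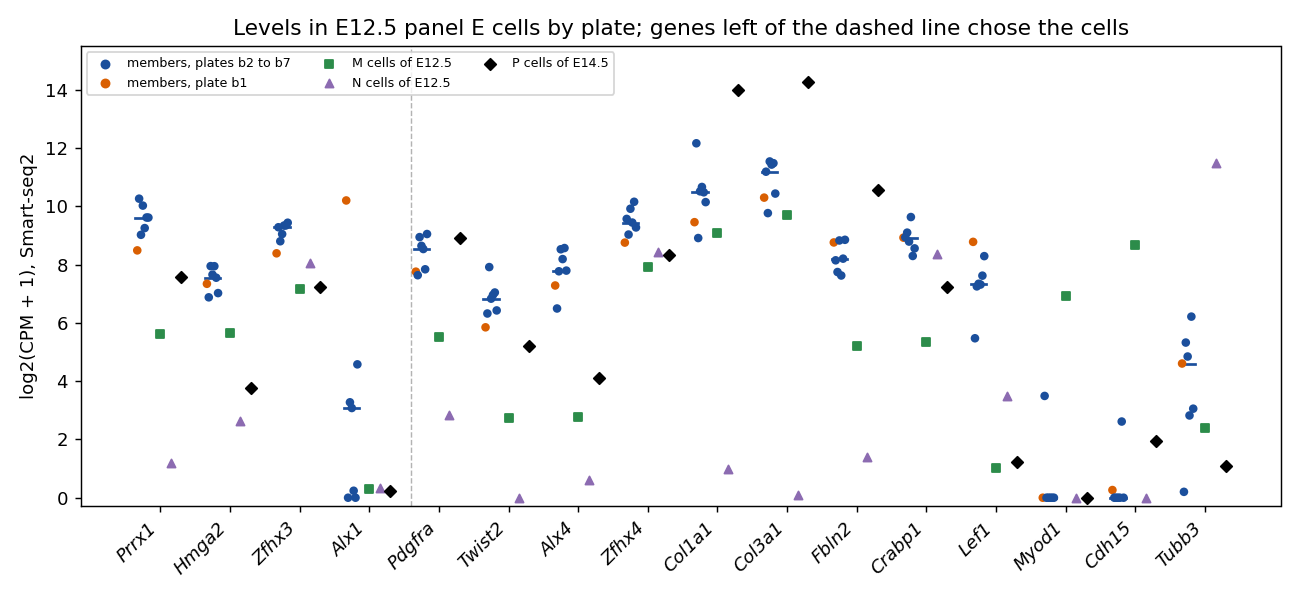
Level of each gene in the E12.5 members as log2(CPM + 1) on ss2, with 1 point per plate (b1 in orange, b2 to b7 in blue, bar at the median plate) and the summed level in M, N and later P cells for comparison. Genes left of the dashed line chose the cells. Alx1 stood at 1174 CPM in plate b1 and at most 22.8 elsewhere, Pdgfra and Lef1 lay above M and N cells in every plate, and Col1a1 lay below the P cells of E14.5 in every plate.

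Members with 1 panel gene were compared with those with more, since a score that rests on 1 UMI is weak. The 100 members with a single panel gene on 10× had 831 CPM of Col1a1 (interval 684 to 1001) and the others, with 2 or 3, had 535.9 (473.9 to 604), both above the 53.03 CPM of N cells and the 42.2 of M cells. For Col3a1 the levels were 794 (650.0 to 960.3) and 709 CPM (636.95 to 786.0), against 79.5 in N cells. Tubb3, a neuronal tubulin of the N panel, stood at 29.96 and 33.7 CPM against 1253 in N cells. Myod1, the myogenic factor, stood at 59.9 CPM (25.9 to 118.1) and 33.7 CPM (19.7 to 54.02), with 158.2 CPM in M cells and 8.84 in N cells. For Col1a1 the members with a single panel gene lay farther from N and M cells than the others did, and for Col3a1 the intervals overlapped. Twist1 went the other way, at 112.4 CPM (62.9 to 185.3) with a single panel gene and 192.5 (156.1 to 234.9) with more. It stood at 84.98 CPM (36.7 to 167.4) in the 66 members with Zfhx3 alone, 42.2 in M cells and 19.7 in N cells. For Tubb3 both sets lay far below N cells. Pdgfra stood at 29.96 CPM (8.16 to 76.7) and 49.6 CPM (32.1 to 73.3).

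Members were uneven over the ss2 plates. They made up 10 of 64 cells on b1 and 4 of 83 on b2, where N cells were most frequent (33 and 56 cells), and 17 of 31, 18 of 37, 16 of 40, 19 of 38 and 10 of 21 on b3 to b7. Plates b1 and b2 were also deeper, with a median of 2167978 and 1868478 counts per member against 149600 to 275830 on the others, so that the 10 members of b1 held 42.9% of all ss2 counts of the members. Summed ss2 levels are therefore weighted to b1, and a ratio that b1 moved by over 1.5 times is also given without it. Scrublet called 8 of the 1017 10× cells of E12.5 as doublets, 3 of them members, and all were kept.

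Position-related genes divided the members by plate. Hox genes mark the level along the body axis and are silent in the most anterior head mesenchyme, whereas Alx1 and Tfap2b belong to facial mesenchyme and Dlx and Barx1 to the pharyngeal arches. On plate b1 all 10 members had Alx1, at 1174 CPM, and the 15 Hox genes of groups 1 to 5 summed to 0.42 CPM, against 223.4 to 662 CPM on the other plates. In the same plate the N cells had 659 CPM of these Hox genes and the Sox2-positive neural progenitors (G cells) 816 CPM. The b1 members also had 316.9 CPM of Tfap2b, where no other plate passed 2.20, and 818 CPM of Sox9, a factor of cartilage precursors, where the others ran from 1.02 to 355.9. Ebf2, an early factor of the brown fat lineage, stood at 0.05 CPM on b1 and at 128.1 to 308.8 CPM on the others.

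**Figure D2:**
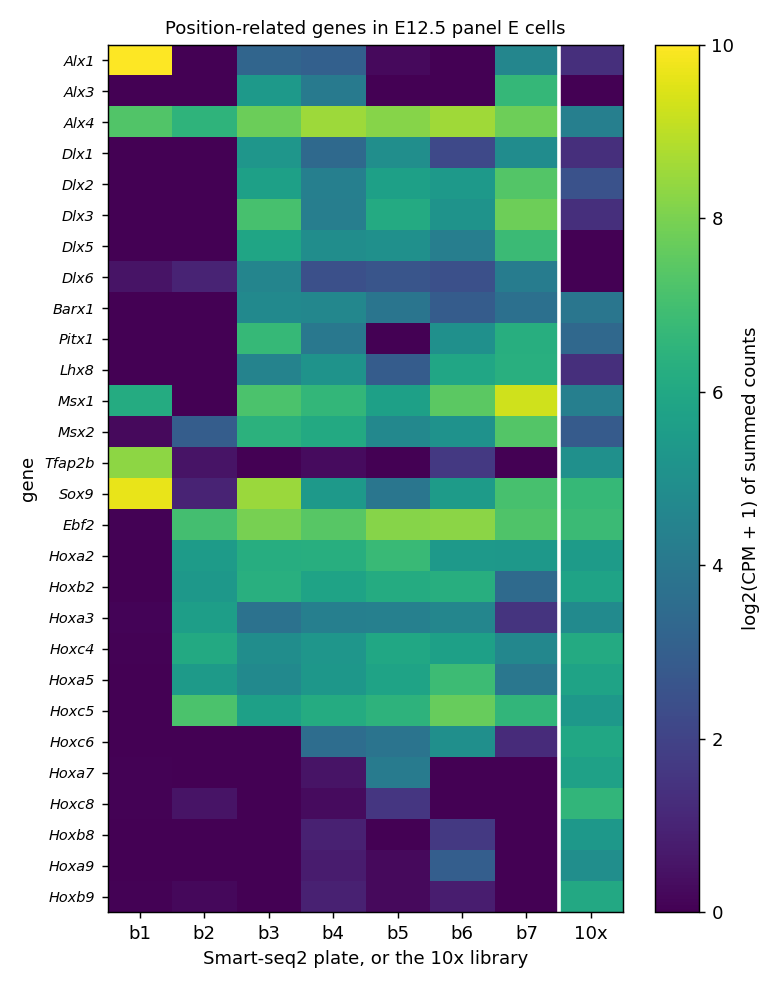
Level of position-related genes (rows) in the members of each ss2 plate and of the 10× library (columns), as log2(CPM + 1) of summed counts, cut at 10. Plate b1 is bright for Alx1, Tfap2b and Sox9 and dark for Ebf2 and the Hox genes, Dlx1, Dlx2, Dlx5 and Barx1 are at 0 on b1 and b2 and seen in b3 to b7, and the posterior Hox genes at the bottom are seen mostly on 10×.

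Arch genes appeared in a second subset on plates b3 to b7. Of the 94 ss2 members 26 had counts of at least 2 of Dlx1, Dlx2, Dlx5, Dlx6 and Barx1, namely 7 on b3, 5 on b4, 5 on b5, 3 on b6 and 6 on b7, with none on b1 or b2, where Dlx6 alone of the 5 genes had counts (in 4 of 10 and 2 of 4 members, at 0.46 and 1.02 CPM). These 26 cells had a median of 0.5 Hox genes with a count, and the other 68 a median of 5. The 18 members with Alx1 had a median of 0 Hox genes, and 6 cells were in both sets. These sets were drawn up after the values were seen, and head tissue was removed before sorting by the stated protocol. Whether the cells of these sets came from the somite or from another tissue was not tested. On 10× Dlx2 had a UMI in 3 members and Dlx5 in none, which allows a share of cells with a UMI of up to 1.03% and sets no limit on cells that express it.

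Hox genes also set the 10× members apart from the ss2 members. The 19 genes of groups 6 to 13, which mark thoracic and more posterior levels, summed to 508.4 CPM on 10× and to 12.8 CPM on ss2, with a highest plate of 57.1 CPM (b6). Groups 1 to 5 summed to 465.99 and 255.7 CPM, but without plate b1 to 452.3 CPM on ss2, near the 10× value, whereas groups 6 to 13 then stood at 22.3 CPM. The N cells changed in the same direction, from 3344 CPM on 10× to 560 on ss2 for the posterior groups and from 2077 to 987 for the anterior ones (837 and 1290 on ss2 without b1). M cells stood at 326.99 CPM on 10× and 46.2 on ss2 for the posterior groups, and at 232.1 and 229.1 for the anterior ones. Which axial levels were collected, how each platform captures these genes and what part of the 10× counts is free RNA cannot be told apart.

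Members were also mixed in the factors of later lineages. With b1 left out, 38 of 84 ss2 members had Ebf2 and 63 had Alx4, a factor of dorsal and craniofacial mesenchyme, and 31 had both (81.6% of those with Ebf2 and 49.2% of those with Alx4). Pax3, which marks the dermomyotome and neural crest, was found in 26, of which 13 also had Ebf2. Tbx15, a factor of dorsal dermis, was found in 24, of which 5 had Ebf2. Sox9 was found in 32, of which 16 had Ebf2. Pax7 itself (chr4:139737062-139833528, minus strand) had a count in 12 of the 94 members, 6 of them on b1, with 44.1 CPM on b1 and at most 6.95 on any other plate. A missing count can be a gene not sampled, above all on the shallower plates b3 to b7.

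The members were next compared with the M cells of the same day, which share library and plates with them. A gene was tested when its mean CPM over both groups was at least 20 on each platform, and called when log2 of the ratio of (CPM + 5) was at least 1, that is 2-fold, in the same direction on both. The 10× intervals are of the ratio before 5 CPM is added. Of 5001 genes 2.96% were higher in members and 68 (1.36%) lower, with a median over all genes of 0.05 on 10× and 0.04 on ss2. The classes were chosen on these cells, so the counts describe the classes. The 37 M cells on 10× held 94803 UMIs, where 3 UMIs are 31.6 CPM: 31 of the higher genes had no UMI in M cells and 88 had 1 to 3, and the 10× interval was above 0 for 83 of them, and below 0 for 39 of the 68 lower genes. Within ss2 plates b2 to b7, which hold at least 4 cells of each class, 98 of the higher genes (66.2%) were higher on all 6 plates. Of the 68 lower genes 50 (73.5%) were lower on all 6. The shares over all tested genes were 6.4% and 8.02%. The calls were made on sums that hold these plates, so a gap from all genes is built in and is no separate support.

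The 12 genes most above M cells are of several kinds. Cxcl14, a chemokine, had 65 UMIs in members and none in M cells, with a lower interval limit of the log2 ratio of 1.35. On ss2 its plates ran from 47.5 CPM (median 85.6) to 528.6 CPM, against 0.318 CPM in M cells. Sfrp1, a secreted Wnt antagonist, had 93 UMIs and none (lower limit 1.88), with ss2 plates of 118.3, 229.4 (median) and 363.8 CPM against 25.7. Crabp1, a retinoic acid binding protein of dermal precursors, had 412.6 CPM in members and 21.1 (2 UMIs) in M cells (log2 ratio 4.00, interval 2.42 to 7.34), with ss2 plates from 312.9 through 484.2 to 791 CPM against 39.2. In N cells it stood at 574 CPM on 10×, above the members. In none of the 3 did a plate of members overlap with the summed M cells. Sfrp1 and Crabp1 were not particular to members among mesenchymal cells of E12.5. In cells highest on Ogn, Aspn, Postn and Igf1 they stood at 274.8 and 480.8 CPM on 10×, and 194.9 and 397.7 on ss2. In those highest on Twist2, Lum, Egfl6 and Thy1 they stood at 274.1 and 753.7 CPM, and 302.7 and 537.7. These classes held only 27 and 10 cells on 10×.

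Ptn, a heparin-binding growth factor, stood at 1508 CPM in members and 168.8 in M cells on 10× (log2 ratio 3.12, interval 2.45 to 3.97) and at 894 and 117.7 CPM on ss2 (log2 ratio 2.87). Nrp2, a semaphorin and Vegf co-receptor, Smoc2, a matricellular protein, Tes, a focal adhesion protein, and Frmd6, a Hippo pathway protein, had 50, 35, 46 and 41 UMIs in members and none in M cells, and ss2 log2 ratios of 4.31, 5.14, 3.59 and 2.54. Emp1, Fbln2, Tnfaip6 and Pdgfra completed the 12 leading genes, also with no UMI in M cells. Each of the 12 was higher in members on all 6 plates, other than Emp1, which was higher on 5.

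Several of the genes most below M cells belong to muscle. Tnnt1, slow troponin T, had 150.6 CPM in members and 570 in M cells on 10× (log2 ratio −1.89, interval −2.42 to −1.41) and 3.26 against 350 CPM on ss2, where the highest plate of members reached 19.3. Myod1 had 25 and 15 UMIs (39.2 and 158.2 CPM), and on ss2 it was found in 1 of 94 members, at 1.53 CPM over all of them against 120 in M cells. Des, the muscle intermediate filament, Heyl, a Notch target of muscle progenitors, and Vgll2, a cofactor of Tead proteins in muscle, had ss2 log2 ratios of −3.97, −3.92 and −4.91. Fgf5, Kcne1l, Serinc5, Itga4, Mycl and Ints6l were also among the leading genes, with ss2 log2 ratios from −4.51 (Kcne1l) to −1.81 (Ints6l). All of the leading genes named here were lower on all 6 plates, other than Myod1 and Ints6l, which were lower on 5.

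**Figure D3:**
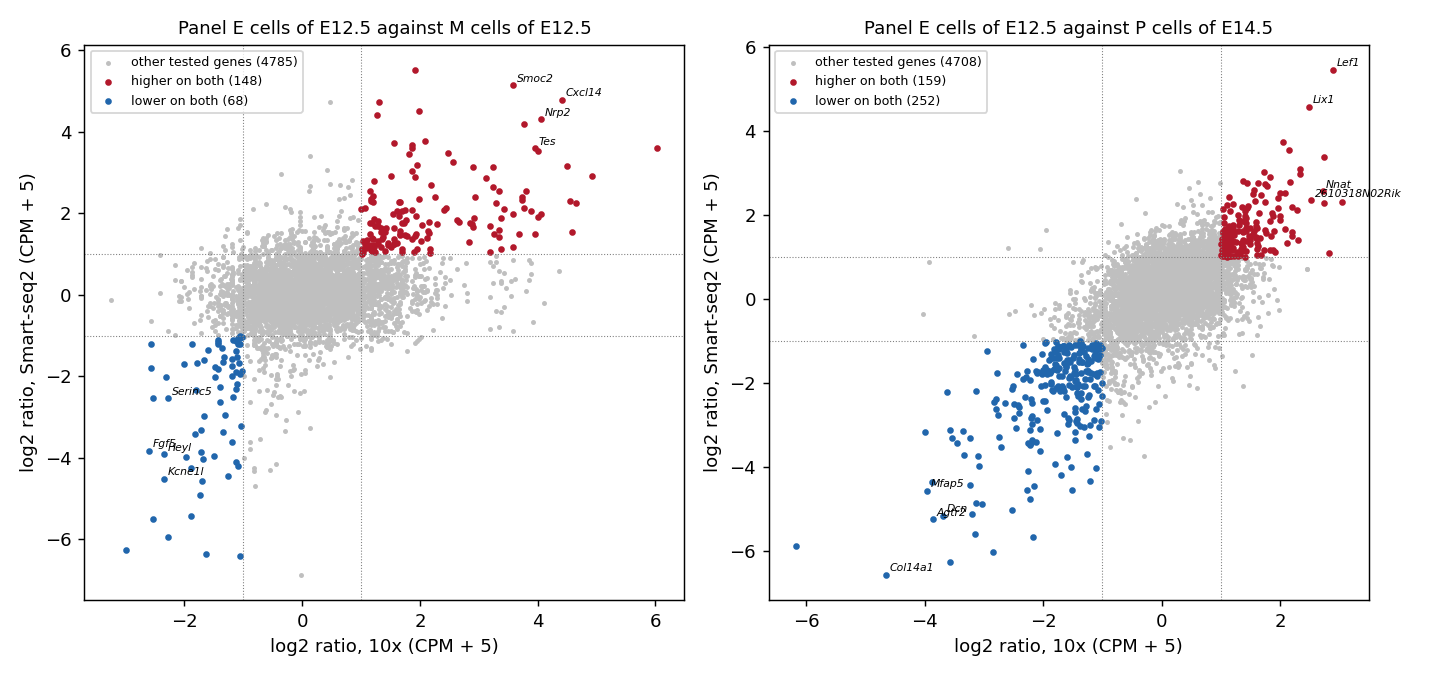
log2 ratio of (CPM + 5) for every tested gene, 10× on the x axis and ss2 on the y axis, for members against M cells of E12.5 (left) and against P cells of E14.5 (right). Red genes were at least 2-fold higher and blue ones at least 2-fold lower on both platforms (2.96% and 1.36% on the left, 3.11% and 4.92% on the right). Ratios of genes with no count in 1 class depend on the added 5 CPM.

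By the lists drawn up for this tissue, 6 of 10 tested muscle genes outside the panels were lower than in M cells and none higher, against 1.36% of all genes (Myod1, Des, Itm2a, Nrk, Tnnt1 and Heyl). Of 4 tested dermomyotome and somite factors 2 were lower, among them Pax7 (log2 ratio −1.10 on 10×, −1.21 on ss2, −3.10 without b1). Of 14 collagens 7 were higher, against 2.96% of all genes, and none lower. Col1a1 had ss2 plates from 480 CPM through 1426 to 4576 CPM, of which 1 lay below the summed M cells, and log2 ratios of 3.68 (interval 2.46 to 5.71) on 10× and 1.48 on ss2. Of 20 other matrix proteins 4 were higher (Bgn, Fbln1, Fbln2 and Tgfbi) and 1 lower, the muscle laminin chain Lama2 (−1.48 and −2.02). The list medians were 1.29 and 0.94 for collagens and 1.16 and 0.57 for the other matrix proteins, beside 0.05 and 0.04 for all genes. With genes at 0 UMIs set to 3 UMIs (the bound), the 10× medians of the 2 lists were 1.01 and 0.88.

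Of 13 tested genes of the Wnt pathway 6 were higher than in M cells, against 2.96% of all genes, and none lower. The medians were 1.24 on 10× (0.91 at the bound) and 1.29 on ss2. They are the ligand Wnt5a (30 UMIs and none, 105.9 against 24.9 CPM on ss2), the receptor Fzd1, the secreted antagonists Sfrp1 and Sfrp2, the nuclear factor Lef1 and the feedback inhibitor Nkd1. Lef1 (chr3:131110471-131224356, plus strand) had ss2 plates from 43.3 CPM (b2) through 161.2 to 437.9 CPM (b1), and 1.04 CPM in M cells, with no overlap. It was found in 66 of 94 ss2 members and in 29 on 10× (9.93%), where 1 of 37 M cells (2.70%) and 9 N cells (2.18%) had a UMI. Of 3 tested genes of the dermal list outside the panel all 3 were higher (Crabp1, Lef1, and Dlk1 at 3.19 on 10× and 1.68 on ss2, or 2.45 without b1). Each is also counted on another list (retinoid, Wnt and imprinted growth genes). Dlk1 was not limited to dermal cells. At E14.5 on 10× it stood at 3351 CPM in cells highest on Twist2, Lum, Egfl6 and Thy1, and at 6039 in those highest on Ogn, Aspn, Postn and Igf1.

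Receptors and ligands of the Pdgf pathway differed in opposite directions. The receptors Pdgfra, Pdgfrb (276.5 against 72.03 CPM on ss2) and Fgfr1 (189.8 CPM against 21.1, log2 ratio 2.90, interval 1.29 to 6.23) and the Fgf target Dusp6 were higher in members. The ligand Pdgfa was lower, with 57 and 29 UMIs (89.4 and 305.9 CPM, log2 ratio −1.72, interval −2.44 to −1.08) and ss2 plates of 0, 1.20 (median) and 10.6 CPM against 116.2 in M cells. Pdgfc was lower at −1.40 (interval −2.58 to −0.34) and −2.62. No plate of members reached the M cells for Pdgfa. Of the 8 tested genes of the list 4 were higher and 2 lower, against 2.96% and 1.36% of all genes. The list median was 0.84 on 10× (0.41 at the bound) and 0.04 on ss2. Its direction was not stable: the median of the mean over both platforms, 0.64, became −0.703 with cells scored at equal depth and −0.932 with a filter of 50 CPM.

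Of 8 tested Bmp and Tgf-beta genes 3 were higher, the ligand Bmp4 (96.3 against 2.91 CPM on ss2) and the Bmp targets Id1 (log2 ratio 1.56, interval 0.92 to 2.33, and 1.37, or 2.07 without b1) and Id2 (1.19, interval 0.78 to 1.64, and 1.08). Of 12 mesenchymal transcription factors 4 were higher, Snai1, Snai2, Zfhx4 (log2 ratio 1.87, interval 0.80 to 3.42, and 1.36) and Ebf2, and 1 was lower, the somite factor Meox1 (−1.19, interval −3.22 to 0.70, and −1.99, or −2.94 without b1). Ebf2 was not particular to members, where it stood at 118.8 CPM on ss2. It stood at 526.1 CPM in E12.5 cells highest on Ogn, Aspn, Postn and Igf1, and at 382.7 in those highest on Twist2, Lum, Egfl6 and Thy1. Of 12 heterochronic genes, which time development through Lin28 and let-7, only the cyclin Ccnd2 was higher (2.17 and 1.02). None of 19 genes of S phase and none of 20 of G2 and M phase passed the fold, with medians of −0.43 and −0.22 and of −0.26 and 1.22, so the platforms differed in direction for the latter. Of 6 hedgehog genes, 4 cell cycle inhibitors and 5 Hox genes none passed it. Over all genes 2.96% were higher than in M cells and 1.36% lower.

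Other lists held few tested genes, and their counts stand beside 2.96% of all genes higher and 1.36% lower. The retinoid list had 1 of 4 higher (Crabp1), the imprinted growth genes 1 of 12 higher (Dlk1) and 1 lower (Peg10), the neural crest list 1 of 2 lower (Erbb3), and tendon and brown fat 0 of 1 each. Of 2 sclerotome genes Col2a1, the cartilage collagen, passed at 1.13 on ss2, but at 0.38 without plate b1. Both tested neuronal genes outside panel N were higher, Stmn2 (53 and 3 UMIs) and Gap43 (44 UMIs and none). On ss2 Stmn2 stood at 237.8 CPM on b1 and at most 2.49 elsewhere, so its log2 ratio of 4.42 became 0.15 without b1. On 10× it was found in 34 members (11.6%), in 83.7% of N cells and in 2 of 37 M cells (5.41%).

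The members were also compared with later mesenchymal cells of another panel, the P cells of E14.5. These scored highest on Ogn, Aspn, Postn and Igf1 and were 32.4% of the 10× cells of that day and 59 cells on ss2. Here panel class, day and library cannot be told apart, and the P cells were deeper (median 5416 UMIs against 1703). The classes were chosen on these cells, so the counts describe the classes. Of the panel that chose the P cells, Ogn, Aspn and Postn are matrix genes. This choice favours lower matrix genes in members in advance, so their counts are no separate support. Few cells of E12.5 were P cells (27 on 10× and 18 on ss2). Lef1 stood at 53.3 CPM on 10× and 271.96 on ss2 in members. In the P cells of E12.5 it stood at 22.9, which a single UMI makes there, and at 9.21, so the 10× gap is not firm. G2 and M phase genes summed to 595.3 and 1327 CPM in them, 1880 and 4167 in members and 710.2 and 1087 in P cells of E14.5. Collagens summed to 3274 and 10805 CPM in them, 2926 and 7049 in members and 11816 and 59947 in P cells of E14.5. Of 5119 tested genes 3.11% were higher in the E12.5 members and 4.92% lower. The median of all genes was 0.09 on 10× and 0.24 on ss2, and centred on it the shares were 2.09% and 6.31%. On ss2, 120 of the higher genes (75.5%) were higher than the P cells of E14.5 on all 7 plates of members, against 17.7% of all tested genes. Of the lower genes 94.05% lay below these P cells on all 7, against 13.1%. Here too the calls were made on the sum of these plates, so the gap is built in.

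Of the lists, those of matrix genes held the largest number of genes below the P cells. By share of tested genes the tendon list (3 of 4) was above both, and brown fat (3 of 5) above the collagens. Of 20 tested collagens 11 were lower and none higher, and of 31 other matrix proteins 20 were lower and none higher, against 4.92% of all genes, with medians of −1.89 and −2.70 for collagens and −1.49 and −2.06 for the rest. Col1a1 stood at 598 CPM in members and 2862 in P cells on 10× (log2 ratio −2.25, interval −2.41 to −2.11), and its highest ss2 plate, 4576 CPM on b2, was under the 16378 CPM of the P cells. Col3a1 had 726 against 3378 CPM on 10× and plates of 869, 2327 (median) and 2970 CPM on ss2 against 19824. Dcn, the proteoglycan decorin, had 26 UMIs (40.8 CPM) against 1040 (587 CPM), and plates from 0 through 18.3 to 162.3 CPM against 1289 on ss2. For all 3 genes no plate of members overlapped with the P cells.

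Col14a1, a fibril-associated collagen, led the genes outside the panels, with 2 UMIs (3.14 CPM) in members and 198.7 CPM in P cells (log2 ratio −4.65, interval −9.04 to −4.12) and 2.74 against 732 CPM on ss2. Mfap5, Thbs4, Htra1 and Nppc, which encode a microfibril protein, a tendon thrombospondin, a secreted protease and a natriuretic peptide, had 2, 2, 1 and 5 UMIs in members (3.14, 3.14, 1.57 and 7.84 CPM) against 121.4, 92.02, 57.02 and 115.7 CPM in P cells. Agtr2, an angiotensin receptor, stood at 37.8 against 1621 CPM on ss2, or 66.97 CPM without b1. Cd36, a fatty acid transporter, Cxcl1, a chemokine, and Dpt, the matrix protein dermatopontin, had no UMI in members. The upper interval limits of their log2 ratios were −2.95, −3.17 and −2.795. With Dcn, Klf2 and Ccl2 completed the 12, the latter pair at log2 ratios of −3.45 and −4.00 on 10×. All 12 were lower on all 7 plates.

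In contrast to the collagens, Fbn2, the fibrillin of embryonic tissue, was not past the fold (236.9 against 254.6 CPM on 10×, log2 ratio −0.10, interval −0.38 to 0.16, and −0.76 on ss2), nor was Pdgfra (−0.42, interval −1.10 to 0.14, and −0.73). Of the lists of connective tissues, lower were 3 of 4 tendon genes (Tnmd, Thbs4 and Egr1) and 3 of 5 brown fat genes (Rgcc, Cd36 and Lpl). Lower were also 5 of 12 imprinted growth genes (Dlk1, Mest, Cdkn1c, Plagl1 and Igf2r), beside 4.92% of all genes. Egr1, an immediate early factor not limited to tendon, ran from 10.1 CPM (b2) and 28.7 (b1) to 1920 CPM on b3, above the 1635 CPM of the P cells, and its ss2 log2 ratio of −1.91 became −1.13 without b1. Plagl1, an imprinted zinc-finger factor, had 225.9 against 1033 CPM on 10× and 56.8 against 3132 on ss2, where b1 had none and the highest plate 165.8 CPM. Of 6 dermal genes Lef1 was higher and Dpt and Dlk1 lower.

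**Figure D4:**
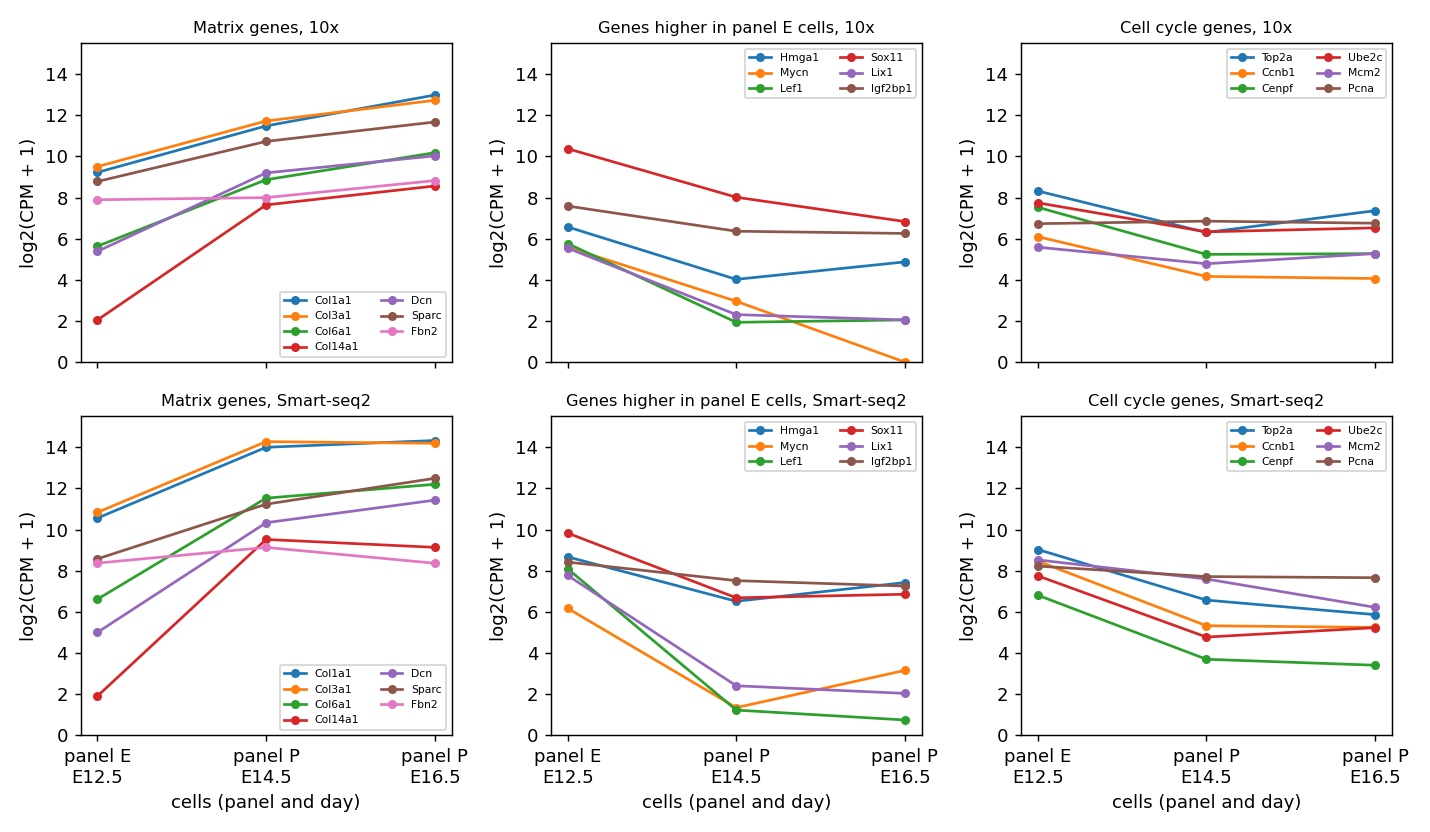
Summed levels as log2(CPM + 1) on 10× (top) and ss2 (bottom) in the E12.5 members and in the P cells of E14.5 and E16.5, for matrix genes, genes higher in the members and cell cycle genes. Col1a1 went from 598 to 2862 CPM between the members and the P cells of E14.5 on 10× and Lef1 from 53.3 to 2.82, whereas Fbn2 (236.9 and 254.6) and Pcna (105.1 and 114.6) lay nearly flat there.

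Lef1 led the genes above the P cells of E14.5 outside the panels. It had 34 UMIs in members and 5 in P cells (log2 ratio 2.90; 53.3 against 2.82 CPM), and all 7 ss2 plates (43.3 to 437.9 CPM) were above the 1.33 CPM of the P cells. Lef1 was not low in all later cells: those that scored highest on Twist2, Lum, Egfl6 and Thy1 (D cells) had 89.2 CPM at E14.5 and 73.03 CPM at E16.5 on 10×, and 209.6 and 199.4 CPM on ss2. Sox11, a factor of embryonic progenitors, had 1327 against 257.99 CPM on 10× (log2 ratio 2.34, interval 2.20 to 2.53) and plates of 417.5, 717 (median) and 1415 CPM against 101.5 on ss2. Mycn, the embryonic Myc factor, had 30 and 12 UMIs and 70.99 against 1.53 CPM on ss2. Hmga1, the chromatin protein akin to Hmga2, had 94.1 against 15.2 CPM on 10× and plates of 210.6, 523.7 and 1162 CPM against 90.2 on ss2. None of the 4 overlapped.

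Nnat, a small imprinted membrane protein, had 683 against 99.4 CPM on 10× and 970 against 160 on ss2. Cbx2, a Polycomb subunit, and Bcl11a, a zinc-finger repressor, had ss2 log2 ratios of 2.32 and 2.29, and Crmp1, a cytoskeletal protein, 2.97. Lix1 (217.2 against 4.29 CPM on ss2, or 90.005 without b1), Cenpf, 2610318N02Rik and E130308A19Rik made up the 12. Each was above the P cells on all 7 plates. The panel gene Hmga2, which chose the cells, stood at 574 CPM in members, 81.3 in P cells of E14.5 and 21.99 in those of E16.5 on 10×.

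Of 11 tested heterochronic genes 3 were higher, or 2 (Hmga1 and Mycn) without plate b1, and 1 was lower (Plagl1). Over all genes 3.11% were higher and 4.92% lower. The list medians were 0.54 and 0.72. Igf2bp1, a let-7 target, was 1.19 on 10× and 0.89 on ss2, and Lin28b, with 4 UMIs in members and 0 in P cells, was under the limit for testing. The step from E12.5 to E14.5 within 1 panel class was read in M cells and in N cells. In M cells 93 of 4545 genes (2.05%) were higher at E12.5 and 57 (1.25%) lower. In N cells 1.88% of 5645 genes were higher and 2.34% lower. None of the heterochronic list passed in M cells, where Hmga1 was 1.09 on 10× and 0.45 on ss2. In N cells Igf2bp1, Igf2bp2, Plagl2 and Gdf11 were higher and Mycn went the other way (−1.04 and −0.60). Differences between these steps were not tested.

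Cell cycle genes of G2 and M phase were the list with the largest number of genes above the P cells. Of 17 tested 10 were higher and none lower, against 3.11% of all genes: Top2a, Ccnb1, Ccna2, Cenpe, Cenpf, Kif11, Kif23, Nusap1, Tpx2 and Ube2c. The medians were 1.27 and 1.63. Top2a, the topoisomerase of dividing cells, had 318.5 against 77.9 CPM on 10× and ss2 plates of 335.3, 467.8 and 662 CPM against 93.97. Ccnb1, cyclin B1, had 67.5 against 16.9 CPM on 10× (43 and 30 UMIs) and plates of 140, 303.5 and 657 CPM against 39.01. No plate overlapped for either. Of 19 S phase genes none passed, with medians of 0.30 and 0.81.

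Promoters of the G2 and M phase genes were read because genes of this phase are known to share a CCAAT box, bound by NF-Y, and a cell cycle homology region (CHR). The 250 bases before the start site were searched on both strands for CCAAT and for TTTGAA, in the RefSeq promoters on GRCm38.p6. Of the 24 genes of the list 20 had a promoter in the table and 16 of those 20 held a CCAAT box, against 34.5% of 27025 promoters. Both motifs were in 7 of the 20, against 5.73%. Of the 10 genes higher in members 8 had a promoter in the table, 7 with a CCAAT box and 3 with both motifs, whereas Ccna2 and Tpx2 had no entry. The 4 windows below, all 5′ to 3′ on the strand of the gene and ending at the base before the start site, are shown because they are those of the genes described. Capitals mark both motifs on either strand. They are Top2a (chr11:99024190-99024439, minus), Ccnb1 (chr13:100786487-100786736, minus), Cenpf (chr1:189688087-189688336, minus) and Ube2c (chr2:164769679-164769928, plus).
Top2a: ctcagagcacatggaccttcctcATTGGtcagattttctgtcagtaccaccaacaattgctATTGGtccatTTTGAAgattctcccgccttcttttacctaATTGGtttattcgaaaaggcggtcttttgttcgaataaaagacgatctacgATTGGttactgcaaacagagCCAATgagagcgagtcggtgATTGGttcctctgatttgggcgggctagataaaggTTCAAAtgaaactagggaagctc
Ccnb1: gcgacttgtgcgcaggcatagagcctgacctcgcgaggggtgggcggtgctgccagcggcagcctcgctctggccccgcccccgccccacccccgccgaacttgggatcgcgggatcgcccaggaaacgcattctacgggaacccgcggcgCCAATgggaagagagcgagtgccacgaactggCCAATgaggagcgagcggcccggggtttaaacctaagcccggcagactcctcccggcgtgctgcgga
Cenpf: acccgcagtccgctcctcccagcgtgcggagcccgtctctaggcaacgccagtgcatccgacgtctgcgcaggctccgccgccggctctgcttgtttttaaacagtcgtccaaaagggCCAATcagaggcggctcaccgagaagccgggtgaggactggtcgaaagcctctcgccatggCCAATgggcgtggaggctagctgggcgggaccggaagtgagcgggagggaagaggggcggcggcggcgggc
Ube2c: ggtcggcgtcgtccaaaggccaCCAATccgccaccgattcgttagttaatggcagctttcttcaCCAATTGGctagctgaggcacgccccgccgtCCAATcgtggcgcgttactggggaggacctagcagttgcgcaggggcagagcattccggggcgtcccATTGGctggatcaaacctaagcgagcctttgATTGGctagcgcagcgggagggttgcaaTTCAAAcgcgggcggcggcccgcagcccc

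Top2a held 6 CCAAT boxes, the nearest at 58 bases before the start, and 2 CHR motifs, of which the nearer began at 23 bases before the start. Ube2c held 6 CCAAT boxes, 2 of them overlapping, and a CHR motif at 29. Ccnb1 and Cenpf held 2 CCAAT boxes each, the nearer at 67 and at 71 bases before the start, and no CHR motif by these letters. A match describes the letters and not binding. Over all promoters of genes higher than in P cells a CCAAT box was found in 44.6%, and over those lower in 33.3%, beside 36.99% of the 4101 tested genes with a promoter in the table.

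Cycling was also read per cell at equal depth. With 10× cells thinned to 1000 UMIs, 87 members (33.7%, interval 27.98 to 39.8%) had at least 2 G2 and M phase genes, against 32 P cells of E14.5 (10.2%, 7.08 to 14.1%) and 31 of E16.5 (16.2%, 11.3 to 22.2%). Without thinning the shares were 44.5%, 32.5% and 17.4%, so the gap between the members and the E14.5 cells was wider at equal depth. Among E12.5 classes the members lay between the N cells (23.04%) and the G cells (68.2%), and near the M cells (44.1%, 27.2 to 62.1%). Of the P cells of E12.5 it was 4 of 21 (19.05%), and the interval (5.45 to 41.9%) holds the shares of members and of later P cells. It was 2 of 8 D cells, and 28.3% of the cells highest on Myog, Mylpf, Tnni1 and Chrna1. On ss2 at equal depth the median was 7 G2 and M phase genes in members, 3 in P cells of E12.5 and 3 in those of E14.5. Whether the gap to the later P cells goes with day or with panel class was not tested. For S phase genes the shares were 37.2% of members and 22.3% and 21.99% of the later P cells. Here the P cells of E12.5 were near the members, at 38.1% (18.1 to 61.6%). Thinning left out 34 members, 6 P cells of E12.5, 22 P cells of E16.5 and no P cells of E14.5. Free RNA in these counts was not tested.

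Signalling genes were read against the P cells of E14.5 in the same way. In the Wnt list 4 of 15 were higher, against 3.11% of all genes, Lef1, Nkd1, Fzd2 and Fzd3 (1.30 and 1.09; 1.13 and 1.495 for the receptors), and 1 was lower, Sfrp2 (−2.23 and −3.13). Of 17 Bmp and Tgf-beta genes Bmp4 was higher (1.61 and 1.18) and Tgfbr2 and the activin antagonist Fst were lower. None of 9 Pdgf and Fgf genes, 6 hedgehog genes, 5 retinoid genes or 5 Hox genes passed the fold. Of 5 cell cycle inhibitors Btg2 and Gas6 were lower. Of 12 mesenchymal factors Nr2f2, a nuclear receptor, was higher (2.01 and 1.96, or 1.22 without b1), and Ebf1 and Meox1 were lower. Ebf2 did not pass (−0.37 and −1.73, or −0.93 without b1).

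The remaining lists were read with and without plate b1, beside 3.11% of all genes higher and 4.92% lower. Lox, of the matrix proteins, went from −1.40 to −0.79 on ss2 without b1. Of the dermomyotome factors Eya4 was higher (1.85, and 2.16 without b1). Col2a1, 1 of 2 sclerotome genes, was higher at 2.03 on ss2, or 1.43 without b1. Stmn2, 1 of 3 neuronal genes, was higher at 3.73 and stood at −0.53 without b1. Of the 3 muscle genes tested Itm2a was lower, and of 3 head and arch genes, a list added after values were seen, 2 were higher. No gene of the neural crest, endothelial, blood or epithelial lists reached the limit for testing.

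Against the P cells of E16.5, a comparison that shares the members with the one above, 9.9% of 5021 genes were higher in members and 8.05% lower, or 4.64% and 10.9% after centring on the median of all genes, 0.24 on 10× and 0.43 on ss2. Of 19 collagens 15 were lower and 1 higher, and of 33 other matrix proteins 25 were lower and 1 higher. The choice of P cells by matrix genes favours this in advance here too. Col1a1 stood at 8107 CPM in these P cells on 10× and 20588 CPM on ss2, a log2 ratio of −3.75 and −3.77. Lef1, with 1 UMI in the later cells, was at 3.14 and 0.675 CPM there. Mycn had no UMI in them, and the members stood at 4.99 times the level that 3 UMIs would make there. Top2a was 0.94 on 10× and 3.08 on ss2, and 4 of 18 G2 and M phase genes were higher and none lower.

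The remaining lists at E16.5 had the following counts, beside 9.9% of all genes higher and 8.05% lower, and a count near those shares is no result about its list. Of 10 heterochronic genes 3 were higher and 1 lower, of 14 Wnt genes 5 and 0, of 16 Bmp and Tgf-beta genes 3 and 3, of 13 mesenchymal factors 4 and 4, of 19 S phase genes 2 and 0, and of 6 retinoid genes 3 and 1. Of 5 tendon genes 4 were lower, of 5 brown fat genes 4, of 12 imprinted growth genes 6 and of 5 cell cycle inhibitors 3, with none higher in these. Of 6 dermal genes 2 were higher and 2 lower, of 4 muscle genes 1 and 2, and of 9 Pdgf and Fgf genes 1 and 0. Of 5 hedgehog genes none passed, and of 2 Hox and 3 head and arch genes all were higher. Of 2 sclerotome, 1 dermomyotome and 2 neuronal genes 1 each was higher.

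Markers of other cell types were summed over their lists. Sums over the list of 7 endothelial genes were 20.4 CPM in members on 10× (21.1 in M cells, 13.6 in N cells), and 48.6 to 416.6 CPM over the ss2 plates, nearly all from Pecam1, at 166.1 CPM in members, 249.2 in M cells and 255.6 in N cells. The 8 blood and macrophage genes summed to 17.3 CPM on 10× and to at most 4.03 on any plate, and the 6 epithelial genes to 14.1 and at most 29.5. The 9 neural crest, glial and melanoblast genes summed to 75.3 CPM on 10× (105.5 in M cells, 605 in N cells) and to 12.3 to 376.4 CPM over the plates, highest on b1, where most was Tfap2b. Of this list Sox10, a factor of migrating neural crest cells and of glia, had no UMI in members and a count in 1 of 94 ss2 members. Tfap2a and the melanoblast gene Dct had counts in 36 each and Kit in 16. Whether members came from neural crest was not tested, and a lack of Sox10 does not decide it. The 14 neuronal genes outside panel N summed to 390.7 CPM in members on 10×, against 210.96 in M cells and 5101 in N cells, and to 39.8 to 353.9 CPM over the plates, highest on b1.

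Muscle transcripts were present at low levels. Myod1 had a UMI in 20 members (6.85%) against 9 N cells (2.18%), and in 2.33% of members and 0.54% of N cells at 1000 UMIs. Myog, the factor of muscle differentiation, had a UMI in 14 members (4.79%) and 18 N cells (4.37%). The 17 muscle genes outside the panels summed to 1050 CPM in members on 10×, 3080 in M cells and 517.4 in N cells, and to 193.7 to 1071 CPM over the ss2 plates against 7770 in M cells. The part of free RNA, or of cells shared in a droplet, in these values was not tested. The 3 10× libraries shared 3 cell barcodes among 2934 cells.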

How the data were processed

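Single cells were taken from 2 deposited tables, and bulk samples were not used here. Per the labels and methods, the authors made the 10× table of UMI counts with Cell Ranger on GRCm38 and the Smart-seq2 table of expected counts with kallisto 0.44.0 and tximport, neither scaled. On plate b2 of E12.5 the expected counts are whole numbers. Cells were matched to days and plates by name, with 0 columns left over. CPM were computed on the 15147 genes of both tables from counts summed over the cells of a class. Python 3.11.15 with numpy 2.4.6, pandas 2.3.3, scipy 1.17.1 and Scrublet in scanpy 1.11.5 was used, and the comparison script was checked on simulated data. No cell was filtered further. A mitochondrial limit of 8% was an alternative, as were other limits, panels, pseudocounts, filters and weights.

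Genes named are the 12 higher and 12 lower with the largest ratio by the smaller of both platforms, outside the panels, and genes of the lists. Some genes counted are not reported here by name. Members, rule and lists were chosen with earlier results of these data known. Gene positions are from GENCODE vM21 and promoters from RefSeq. Median depth per member was 1703 UMIs (566 to 8626) on 10× and 240512 expected counts on Smart-seq2, so a count of 0 in 292 members allows a share of cells with a UMI of up to 1.03%, which is no limit on cells that express the gene. Members numbered 386, namely 292 of 1017 cells on 10× and 94 of 314 on Smart-seq2, beside 412 N cells and 37 M cells of E12.5 and 314 P cells of E14.5 on 10×. The comparisons called 148 higher and 68 lower genes, 159 and 252, and 497 and 404. The replicates are cells of pooled embryos, and no p-value was computed.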

Additional observations from a re-analysis of the deposited data

Results flagged for a closer look

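Of 26 list levels checked over the 7 Smart-seq2 plates of members, 6 had 1 plate far from the others (Dixon's limit). The limit assumes values of like precision, whereas the plates held 4 to 19 members and differed in depth and sequence batch. It served only to flag levels, and no chance rate can be given. On plate b1 the summed CPM of neural crest, glial and melanoblast markers was 376.4, next to 64.2 (median 37.3), and that of neuronal markers outside panel N was 353.9, next to 141.9 (median 102.8). Plate b7, with 10 members, was highest for dermomyotome and somite factors, at 666.0 CPM (next 420.95, median 344.9), and for brown fat genes outside panel A, at 514.04 CPM (next 287.8, median 188.7). Plate b2, with 4 members, was highest for other matrix proteins, at 9905 CPM (next 6836, median 6100), and lowest for the Wnt pathway, at 1847 CPM (next 2392, median 2533). Summed counts of 4 to 10 cells can rest on 1 cell, and the part of single cells was not tested.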

How the results depend on the processing

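The members stayed within 1.5 times their number under each alternative over both platforms, and on 10× they fell from 28.71 to 18.88% of the E12.5 cells when at least 2 panel genes were asked for. The share of genes past the fold turned on the filter and the pseudocount (all in percent of the genes tested as reported). With no filter it was 11.4 higher and 3.0 lower against M cells, 7.07 and 8.77 against P cells of E14.5, and 22.31 and 13.64 against P cells of E16.5. With a filter of 50 CPM it was 1.14 and 0.76, 1.09 and 2.66, and 3.86 and 4.46. With 20 CPM added, 0.74 were lower than in M cells, 1.45 higher than in P cells of E14.5 and 5.2 higher than in P cells of E16.5, and centring left 4.64 higher at E16.5. Scored at equal depth, 64.2% of the genes higher than in M cells were called again, and with plate b1 left out 92.6%. Leaving out each plate in turn gave 2.9 to 3.94 higher and 1.32 to 1.46 lower against M cells, 2.95 to 3.32 and 4.9 to 5.16 against E14.5, and 9.7 to 9.96 and 7.99 to 8.05 against E16.5. The leading genes named by rule kept the sign of their mean log2 ratio over both platforms under each alternative in which they were tested, whereas Stmn2, of a list, changed sign on ss2 against E14.5 without b1. The list median of that mean for Pdgf and Fgf genes against M cells (0.64) became −0.703 at equal depth and −0.932 with 50 CPM, and that of dermal genes against E14.5 (−0.629) became 0.162 with no filter. That of neuronal genes against E16.5 (1.251) became −0.309 with 50 CPM, −0.484 with equal weight per cell and −0.409 in sequence batch 5 alone, and ran from −0.471 (without plate b1) to 1.331 with 1 plate left out. The causes were not tested. No paired analysis was possible because the result comes from no test. Members and M cells share plates b2 to b7, where they were compared within plates. Depth limits the 10× values: with 37 M cells, a gene under 31.6 CPM there cannot be told from 0.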
